A study of Mus musculus with 9 samples.

Results

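The genes described here encode proteins of the lung's extracellular matrix other than collagens. Of 10 listed genes, 7 had at least 1 probe set that carries their symbol alone: Fn1, Tnc, Lox, Eln, Sparc, Postn and Bgn, out of 8251 genes so named on the array. Together they had 11 probe sets. Spp1 and Fbn1 are not analysed here, and Thbs1 is not either, because its probe set also carries the symbol of Pald1. The list was drawn up by gene name, with earlier results of these data known.

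The arrays measured total RNA from lungs of C57BL6 mice in a model of asthma whose allergen was the egg protein ovalbumin (OVA). Each of 3 groups had 3 arrays. The first received saline, the second OVA, and the third OVA together with an agonist of EP3, a receptor for prostaglandin E2. A time of 24 h stands in the names of the OVA and agonist samples. The labels used here give no name, dose or schedule for the agonist, no sensitisation and no age. They do not tie arrays to single animals, so p-values measure the spread between these samples, which may be technical.

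Matrix proteins fall into a few working parts. Fibronectin (Fn1) is an adhesive glycoprotein that cells grip through integrins and that forms the provisional matrix of injured tissue. Tenascin-C (Tnc), periostin (Postn) and SPARC (Sparc) are matricellular proteins, which tune how cells attach rather than bear load. Elastin (Eln) forms the recoiling core of lung elastic fibres, and lysyl oxidase (Lox) cross-links elastin and collagen. Biglycan (Bgn) is a small leucine-rich proteoglycan that binds collagen and TGF-beta. Allergic airway disease is known for deposition of several of these proteins under the airway epithelium.

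Intensities were brought to a common level by scaling, and a detection limit was set at 44.7, the 40th percentile of all scaled values. A probe set was tested where at least 3 of 9 arrays exceeded it, which held for 10 of the 11 member probe sets and 7920 probe sets in all. The level of 1 probe set cannot be set against that of another, so all comparisons below are between groups. After scaling, 59.6% to 60.6% of probe sets on each array lay above the limit, a level that follows from the percentile chosen. Arrays of a group correlated at r between 0.879 and 0.926 across probe sets, with the third agonist array lowest against its 2 partners (0.88 and 0.879). Against OVA arrays 1, 2 and 3 the third agonist array correlated at 0.870, 0.881 and 0.904, and against saline arrays at 0.881, 0.881 and 0.851. Over all probe sets it was thus as close to OVA arrays as to its own group. All 7 measured markers of lung epithelium passed the filter, among them Ager and Sftpb. Only RNA of whole lung was measured, in which fewer cells of a type and less RNA per cell cannot be told apart.

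The 250 bases before an annotated start (RefSeq, GRCm38.p6) are shown for Tnc, which had the largest difference between OVA and saline lung among the tested member probe sets, and for Bgn, as a contrast with a steadier level. Of the 7 genes, Tnc, Postn, Sparc and Bgn had an entry. Capitals mark matches on either strand to the core of the TATA box, spelled TATAAA, and of the Sp1 box, spelled GGGCGG. For Tnc the upstream one of 2 overlapping windows is given. The Tnc stretch is chr4:64047016-64047265 on the minus strand and the Bgn stretch chrX:73483351-73483600 on the plus strand, each written 5′ to 3′ in the sense of the gene.
Tnc: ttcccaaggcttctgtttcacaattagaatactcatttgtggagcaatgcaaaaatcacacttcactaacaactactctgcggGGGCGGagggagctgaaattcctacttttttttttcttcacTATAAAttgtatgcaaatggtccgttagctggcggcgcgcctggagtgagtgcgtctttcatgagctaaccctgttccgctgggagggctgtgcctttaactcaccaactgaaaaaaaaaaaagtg
Bgn: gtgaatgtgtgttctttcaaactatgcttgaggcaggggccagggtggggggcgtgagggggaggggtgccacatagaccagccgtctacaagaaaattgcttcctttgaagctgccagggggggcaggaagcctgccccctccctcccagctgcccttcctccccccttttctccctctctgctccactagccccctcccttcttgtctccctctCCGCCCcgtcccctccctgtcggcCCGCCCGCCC
The Tnc stretch held 1 TATA box and 1 Sp1 box at a GC content of 44.8%. The Bgn stretch held no match to TATAAA and 3 to GGGCGG, 2 of them overlapping at its end, at a GC content of 64.4%. Neither held CCAAT or TGANTCA (the AP-1 site). Of 32851 mouse promoter stretches of the same length, 12.4% held TATAAA, 32.7% GGGCGG, 33.8% CCAAT and 6.75% TGANTCA. A match describes the letters of this window and not binding of a factor.

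The comparison of OVA with saline lung asks what allergen challenge altered. Fibronectin and tenascin-C were higher on each OVA array than on any saline array, by 1.53-fold and 1.74-fold, and neither passed the adjusted threshold. Of the 10 tested probe sets 0 passed (limma, adjusted p under 0.05), against 9.49% of all tested probe sets. At an unadjusted p under 0.05 there were 3 (Fn1, Tnc and 1 of Eln), all higher in OVA lung, against 29.1% of all in either direction and 12.1% higher. Groups did not overlap for 4 of the 10, against 37.6% of all: 3 were higher in OVA lung (15.5% of all) and 1, of Bgn, lower (22% of all). The members' median log2 change was 0.10 and that of all tested probe sets −0.08. A share near or below the background is no result about the members as a group. The shares higher in OVA lung were above the background, but they rest on 3 probe sets and were not tested as a set.

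**Figure D1:**
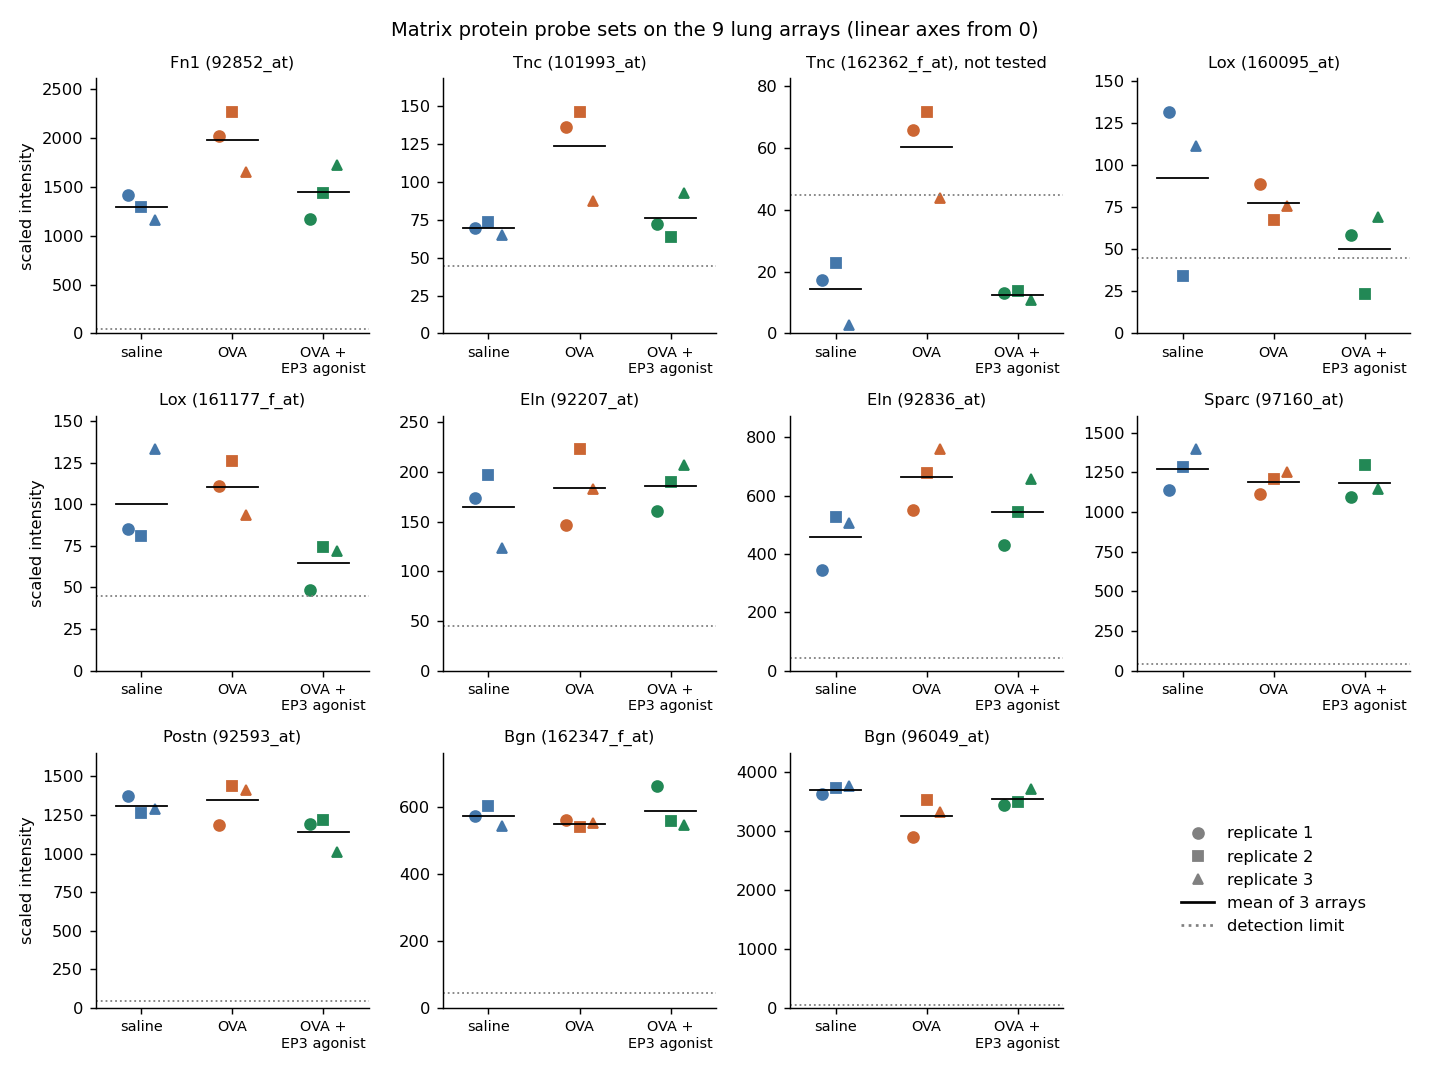
Scaled intensity (linear axis from 0, a different range in each panel) of the 11 probe sets on each array, with saline in blue, OVA in orange and OVA plus EP3 agonist in green; symbols give the replicate number, black bars the mean of 3 arrays and the dotted line the detection limit of 44.7. Fn1, both Tnc probe sets and Eln 92836_at are higher on every OVA array than on every saline array, and Bgn 96049_at is lower. The group means of Sparc, Postn and Bgn lie closer together.

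Fn1, the adhesive glycoprotein, read 1418, 1298 and 1161 on saline arrays 1, 2 and 3. On OVA arrays it read 2026, 2271 and 1653, and on agonist arrays 1177, 1441 and 1726. The OVA arrays all exceeded the saline arrays, and the third agonist array exceeded the lowest OVA array. The means were 1293 ± 129 in saline and 1983 ± 312 in OVA lung (SD, n = 3), a log2 change of 0.61 ± 0.175 SE (95% interval 0.20 to 1.02, limma, adjusted p = 0.0676). A change of 0.69 would have been needed to pass at this spread. Between arrays of the same replicate number the change was 0.51, 0.81 and 0.51. Same-numbered arrays did not deviate together, so such values, here and below, show the spread and are not paired effects.

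Tnc, which is scarce in resting adult tissue and made during repair, read 69.4, 73.5 and 65.0 on saline arrays. OVA arrays gave 137, 146 and 87.5, and agonist arrays 72.2, 64.0 and 93.1. The saline arrays lay close together, the OVA arrays above all of them, and the third agonist array again above the lowest OVA array. From 69.3 ± 4.24 in saline to 124 ± 31.6 in OVA lung (SD, n = 3) the log2 change was 0.80 ± 0.217 SE (95% interval 0.30 to 1.30, limma, adjusted p = 0.059), where 0.85 would have been needed. By replicate number it was 0.98, 0.99 and 0.43. Without OVA replicate 3 Tnc passed, at 1.03 (adjusted p = 0.0264), and the adjusted p over the 9 arrays left out in turn ran up to 0.175.

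The other Tnc probe set, 162362_f_at, was too dim to be tested. It read 17.3, 22.8 and 2.79 on saline arrays, 65.8, 71.8 and 43.7 on OVA arrays and 12.9, 13.6 and 10.7 on agonist arrays. Only OVA arrays 1 and 2 exceeded the detection limit, and neither saline nor agonist arrays overlapped the OVA arrays. With no filter on dim probe sets the log2 change from saline to OVA was 2.47 ± 0.732 SE (adjusted p = 0.108), and from OVA to agonist −2.26 (adjusted p = 0.165). With all values also held at the limit these became 0.41 and −0.41. The suffix f marks a probe set that can also detect related transcripts, and this applies to 1 probe set each of Lox and Bgn as well.

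Most macrophage markers were also higher in OVA lung. Of 11 tested macrophage markers 10 rose and 1 fell between saline and OVA (limma), against 4.79% and 4.67% of 5950 genes. The 1 that fell was Lyz2, at 5587 ± 388 in saline, 4163 ± 506 in OVA and 6168 ± 153 in agonist lung (SD, n = 3). The summed intensity of the 13 macrophage markers on the array was 8725 to 9705 on saline and 16589 to 17761 on OVA arrays. On agonist arrays 1, 2 and 3 it was 10836, 10888 and 14761. The brightest markers, Lyz2 and Chil3 (1709 in saline and 5617 in OVA lung), weigh most in this sum. The third agonist array was highest of its group in the smooth muscle (6439, 6257 and 6767) and fibroblast sums (5598, 6399 and 6578) as well. In the endothelial sum it was lowest (14149, 14243 and 12816). Marco was the macrophage marker that exceeded the detection limit on no array. Smooth muscle markers rose in 4 of 8 cases, with sums of 5451 to 6143 in saline, 7221 to 8681 in OVA and 6257 to 6767 in agonist lung, with Smtn above the limit on no array. Their part in the Fn1 and Tnc values was not tested.

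**Figure D2:**
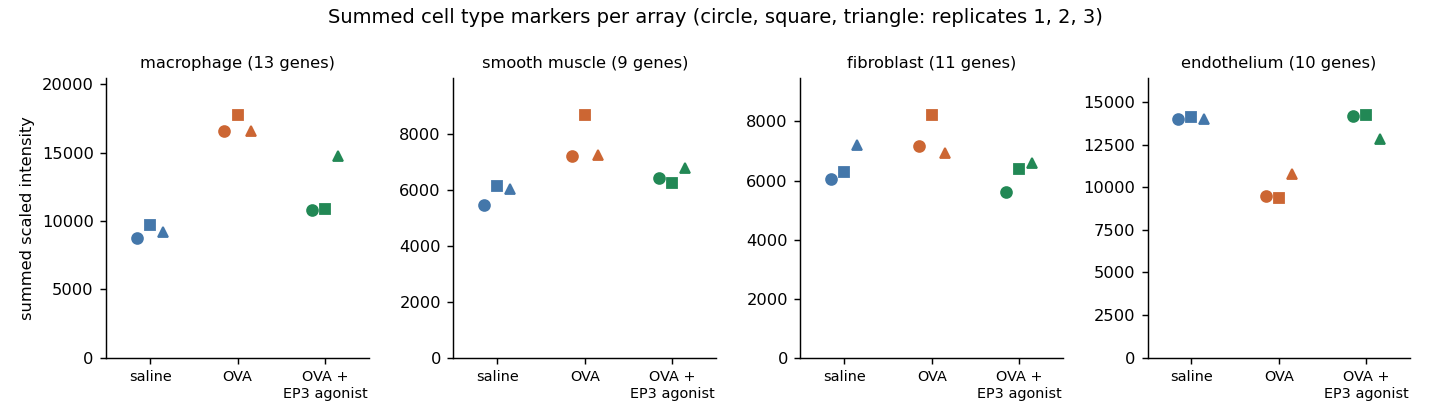
Summed scaled intensity of the markers of 4 cell types on each array (linear axis from 0, 1 brightest probe set per gene, values below 0 counted as 0); symbols give the replicate number. Macrophage sums are 16589 to 17761 on the OVA arrays and reach 14761 on the third agonist array, and endothelial sums are lowest on the OVA arrays.

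Of the elastic fibre pair, Eln had 2 probe sets with different sizes of change. Probe set 92836_at read 344, 526 and 505 on saline arrays, 552, 678 and 760 on OVA arrays and 431, 545 and 658 on agonist arrays. Each OVA array was above each saline array, and the agonist arrays spanned both. The log2 change was 0.55 ± 0.224 SE (limma, adjusted p = 0.154), at 0.68, 0.37 and 0.59 by replicate number. Probe set 92207_at averaged 165 ± 37.6 in saline, 184 ± 38.3 in OVA and 186 ± 23.5 in agonist lung (SD, n = 3), with overlapping groups and a log2 change of 0.17 (95% interval −0.34 to 0.67, adjusted p = 0.651). Lox, the cross-linking enzyme, showed no separation of OVA from saline. Its probe set 161177_f_at changed by 0.17 (95% interval −0.41 to 0.74, adjusted p = 0.69) and 160095_at by −0.05 (−1.38 to 1.28, adjusted p = 0.964). On 160095_at saline arrays read 132, 34.3 and 111 and agonist arrays 58.2, 23.2 and 69.0, and at the spread over all 9 arrays a change of 4.77-fold would have been needed for a call.

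Sparc, Postn and Bgn were measured with small spread and differed little between OVA and saline. Sparc, a collagen-binding matricellular protein, read 1137, 1282 and 1398 on saline and 1115, 1208 and 1250 on OVA arrays, which overlapped (OVA over saline 0.939-fold, 95% interval 0.785 to 1.12, adjusted p = 0.626). Postn, known as an epithelial and fibroblast product in type 2 airway inflammation, read 1372, 1260 and 1292 on saline and 1187, 1438 and 1411 on OVA arrays (1.03-fold, 0.855 to 1.23, adjusted p = 0.858). The OVA arrays spanned all saline arrays for Postn. Bgn probe set 162347_f_at was at 0.963-fold (0.823 to 1.13, adjusted p = 0.749). The other, 96049_at, was lower on each OVA array (2899, 3524 and 3313) than on any saline array (3614, 3715 and 3756), at 0.876-fold with an interval of 0.753 to 1.02 (adjusted p = 0.216). For Sparc, Postn and both Bgn probe sets the intervals reached no higher than 1.23-fold and no lower than 0.753-fold.

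**Figure D3:**
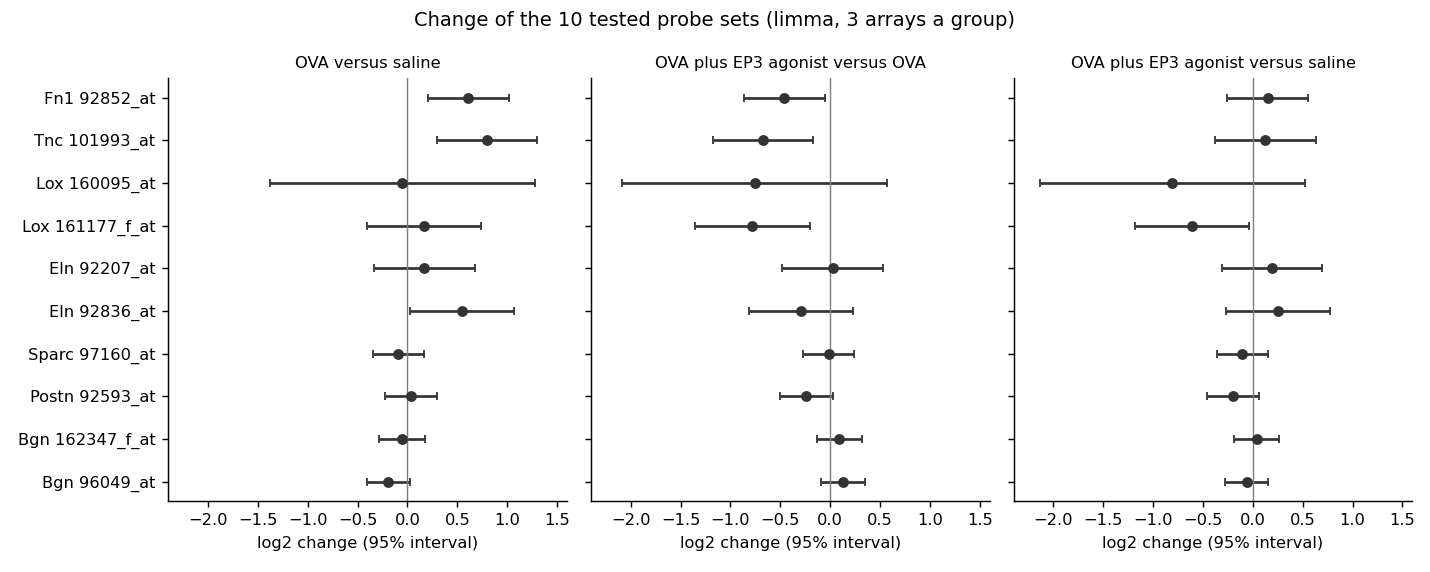
Log2 change with its 95% interval (limma, 3 arrays a group) of the 10 tested probe sets in each of the 3 comparisons, the group named first minus the other; the grey line marks no change. Fn1 and Tnc have intervals above 0 for OVA versus saline and below 0 for agonist versus OVA. The interval of Eln 92836_at is also above 0 for OVA versus saline. That of Lox 161177_f_at is below 0 for agonist versus OVA and agonist versus saline. The adjusted p was 0.059 or more in each case.

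The comparison of agonist-treated with OVA lung asks what the EP3 agonist changed in challenged mice, and it shares the OVA arrays with the comparison above. Fn1, Tnc and Lox were lower in agonist lung by 1.38-fold to 1.72-fold, and 0 of the 10 probe sets passed (limma), against 2.75% of all. At an unadjusted p under 0.05 there were 3, Fn1, Tnc and Lox 161177_f_at, all lower with the agonist, against 24.2% of all in either direction and 10.1% lower. Groups did not overlap for 1 (Lox 161177_f_at, lower), against 29.9% of all in either direction and 12% lower. The members' median log2 change was −0.27 and that of all tested probe sets 0.06.

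For Tnc the change was −0.67 ± 0.217 SE (95% interval −1.18 to −0.17, limma, adjusted p = 0.116), and −0.92, −1.19 and 0.09 by replicate number. For Fn1 it was −0.46 ± 0.175 SE (−0.87 to −0.05, limma, adjusted p = 0.164), and −0.78, −0.66 and 0.06. In both genes the third agonist array lay above the other agonist arrays. Without agonist replicate 3 the change was −0.83 for Tnc (adjusted p = 0.0745) and −0.59 for Fn1 (adjusted p = 0.0872). Other settings also gave weaker changes. Over all settings Tnc ran from −0.91 to −0.53 (limma, adjusted p from 0.0518 to 0.306). Fn1 ran from −0.59 to −0.32 (limma, adjusted p from 0.0872 to 0.361).

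Lox 161177_f_at was the tested member probe set whose agonist arrays lay below both other groups and had an unadjusted p under 0.05 against each. The agonist arrays read 48.2, 74.5 and 71.9, below all OVA arrays (111, 126 and 93.3) and all saline arrays (85.1, 81.2 and 133). The log2 change was −0.78 ± 0.247 SE against OVA (limma, adjusted p = 0.112) and −0.61 against saline (limma, adjusted p = 0.619). On 160095_at the agonist arrays overlapped OVA (88.9, 67.4 and 75.3) and saline, with changes of −0.76 (95% interval −2.09 to 0.57, adjusted p = 0.453) and −0.81 (−2.14 to 0.52, adjusted p = 0.777). Probe set 161177_f_at exceeded the detection limit on all 9 arrays and 160095_at on 7, with saline replicate 2 and agonist replicate 2 below it.

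Postn read 1191, 1219 and 1012 on agonist arrays, which reached above the lowest OVA array but stayed below each saline array. Its change was −0.24 against OVA (adjusted p = 0.248) and −0.20 against saline (adjusted p = 0.722). Sparc read 1096, 1298 and 1147, at 0.989-fold of OVA (95% interval 0.828 to 1.18). Bgn 96049_at read 3431, 3479 and 3706 and Bgn 162347_f_at 661, 557 and 546, at 1.09-fold and 1.07-fold of OVA (adjusted p = 0.432 and 0.598). Eln 92836_at changed by −0.29 (adjusted p = 0.458) and Eln 92207_at by 0.02 (adjusted p = 0.957).

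Between agonist-treated and saline lung, which both other comparisons overlap with, 0 of 10 passed (limma), against 0.0758% of all, and only Lox 161177_f_at had an unadjusted p under 0.05, against 7.71% of all in either direction and 4.09% lower. Lox 161177_f_at and Postn had groups that did not overlap, both lower, against 13.7% of all in either direction and 7.06% lower. Fn1 was at 1.11-fold of saline (95% interval 0.838 to 1.47) and Tnc at 1.09-fold (0.769 to 1.55). Of 7920 probe sets 6 passed, and at that number Tnc would have had to change 3.56-fold to be called.

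Across the 9 arrays, which include the group differences, Fn1 and Tnc ran together at r = 0.921, while Bgn 96049_at ran at −0.489 with Fn1 and −0.555 with Tnc. The 2 Eln probe sets correlated at 0.401, the 2 Lox probe sets at 0.413 and the 2 Bgn probe sets at −0.0222. The rule for likeness named no gene, because no member passed a test. Chosen after their values were seen, the genes most like Tnc were Igkv10-96 (r = 0.991), Aass (0.967) and Vmp1 (0.961), and those most like Fn1 were Sema4d (0.967), Vmp1 (0.964) and Mrpl52 (0.962), each over 9 arrays and 5949 genes. The highest of 5949 values over 9 arrays is high by selection. For Bgn 162347_f_at, Bgn 96049_at and Eln 92836_at it was 0.978, 0.977 and 0.961, and for the other tested member probe sets 0.897 to 0.939.

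Some other matrix genes and receptors passed between saline and OVA. Several of them changed less than Fn1 (1.53-fold) and Tnc (1.74-fold), which did not pass. Counted by the brightest probe set per gene, 4.79% of 5950 genes rose and 4.67% fell. Of 10 other elastic fibre genes 2 fell and 0 rose (median log2 change −0.32). Ltbp4, which anchors latent TGF-beta and helps assemble elastic fibres, fell 1.86-fold (2318 ± 35.0 to 1259 ± 215, adjusted p = 0.0127), and Fbln2, a fibulin, fell 1.45-fold (adjusted p = 0.0442). Of 12 other matricellular genes 1 rose and 1 fell (median −0.16). Tnxb, another tenascin, fell 2.6-fold (464 ± 63.7 to 185 ± 63.8, adjusted p = 0.0293), while Tgfbi, a relative of periostin induced by TGF-beta, rose 2.28-fold (210 ± 26.2 to 478 ± 54.6, adjusted p = 0.0296). Tnxb thus lay on the other side of 0 from Tnc.

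Of 8 other proteoglycans 2 fell and 0 rose (median −0.32). Dcn, decorin, the closest relative of biglycan, fell 1.42-fold (1739 ± 106 to 1224 ± 26.2, adjusted p = 0.0239), and Agrn, agrin, fell 1.26-fold (adjusted p = 0.0395). Of 10 basement membrane glycoproteins 1 fell and 0 rose (median −0.44), Lama3, a laminin chain of epithelium, by 1.84-fold (adjusted p = 0.0156). Of 9 matrix receptors 1 rose and 2 fell (median −0.15). Cd44, which binds hyaluronan and osteopontin, rose 1.98-fold (80.1 ± 15.7 to 157 ± 18.4, adjusted p = 0.0226). Itga8, an integrin chain whose dimer binds fibronectin and tenascin-C, fell 2.15-fold (144 ± 19.7 to 69.4 ± 24.9, adjusted p = 0.0354), and Cd36, a thrombospondin receptor, fell 1.49-fold (adjusted p = 0.0311). Each of these 10 genes lost its call when some array was left out: Ltbp4 without OVA replicate 2 only (adjusted p = 0.0537), and the other 9 without any 1 saline array or OVA replicates 1 or 2 (highest adjusted p between 0.0671 and 0.126). All 10 lost it under the replicate block (adjusted p between 0.0584 and 0.0921). With only the 6 arrays compared Fbln2, Agrn, Itga8 and Cd36 lost it, with no filter Fbln2, Tnxb, Tgfbi and Itga8, with equal array medians Agrn, and with quantile normalization or an intensity trend and robust prior Fbln2 (adjusted p between 0.0508 and 0.0717). Agrn, Cd36 and Fbln2 also lost it without OVA replicate 3, Agrn, Fbln2 and Itga8 without agonist replicate 2, and Fbln2 without agonist replicate 1.

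**Figure D4:**
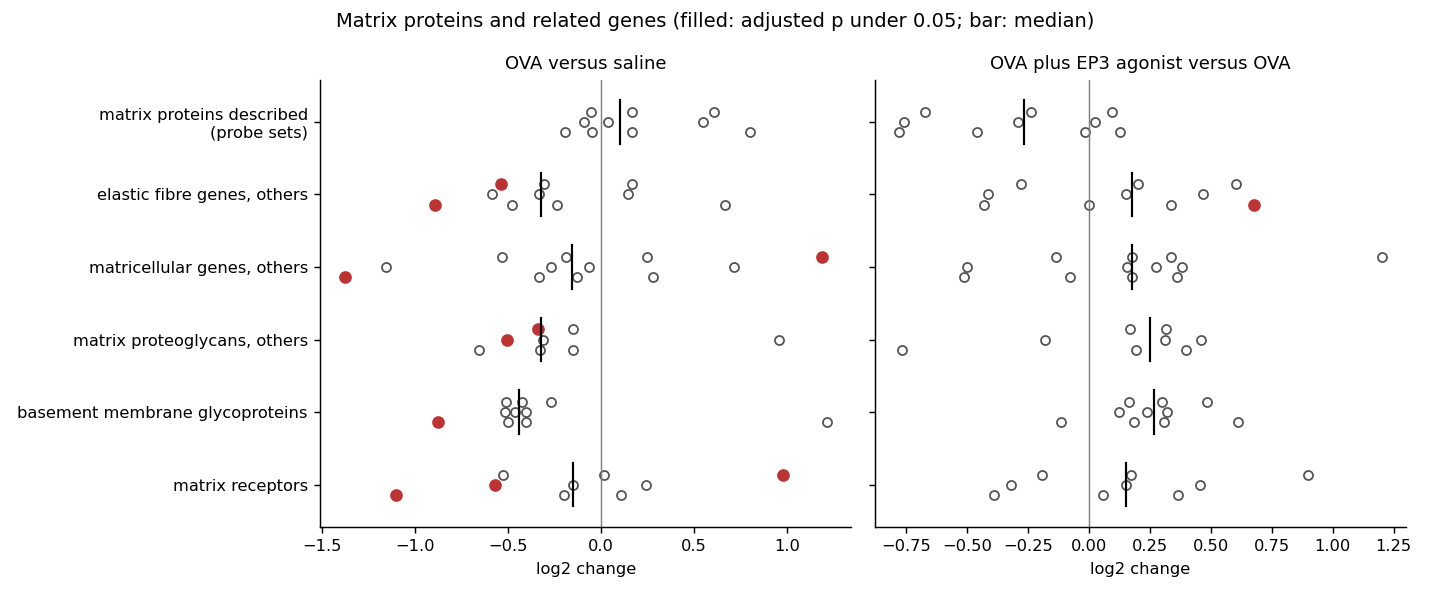
Log2 change of the 10 tested member probe sets and of the genes of 5 related lists (1 brightest probe set per gene) for OVA versus saline and agonist versus OVA; filled red points passed at an adjusted p under 0.05 and black bars are medians. The members' median lies above 0 for OVA versus saline (0.10) and the 5 related lists' medians below it (−0.15 to −0.44); the difference between the lists was not tested.

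With the agonist, 1 gene of these 5 lists passed against OVA: Ltbp4, 1.6-fold higher (1998 ± 143, adjusted p = 0.0444), which lost the call with 7 of 9 arrays left out (all but OVA replicate 3 and agonist replicate 3), with no filter (adjusted p = 0.0531), with the replicate block (0.117, adjusted) and with only the 6 arrays compared (0.135, adjusted). Between agonist and OVA 2.72% of genes passed, 1.21% higher. Tnxb stood at 414 ± 98.9 in agonist lung (adjusted p = 0.0647 against OVA), Lama3 at 222 ± 31.9 (adjusted p = 0.0567) and Tgfbi at 350 ± 117 (adjusted p = 0.261). Tnxb and Lama3 passed with the floor at the 40th percentile, the filter at the 60th, an intensity trend and robust prior, or array weights (adjusted p of 0.0396 to 0.0488 for Tnxb and 0.0328 to 0.0443 for Lama3). Lama3 also passed without agonist replicate 3 (adjusted p = 0.0217) and Itga8 without OVA replicate 3 (adjusted p = 0.0443). Between agonist and saline lung 0 genes of any of the 5 lists passed (limma; 0 or 1 in each at an unadjusted p under 0.05), against 0.101% of genes.

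Markers of matrix-producing and neighbouring cells gave these counts between saline and OVA, where 4.79% of 5950 genes rose and 4.67% fell. Of 10 fibroblast markers, decorin counted again, 1 rose and 2 fell. S100a4 rose (115 to 541), and Pdgfra and decorin fell. The fibroblast sums were 6042 to 7211 in saline, 6916 to 8224 in OVA and 5598 to 6578 in agonist lung, with Fap above the detection limit on no array. Of 10 endothelial markers 7 fell (sums 14000 to 14107, 9386 to 10772 and 12816 to 14243), of 7 epithelial markers 3 fell (34531 to 41486, 27067 to 33601 and 38014 to 38359), and of 9 heart muscle markers 5 fell (4514 to 5529, 3412 to 4201 and 4512 to 5233, Ryr2 above the limit on no array). Of 3 mesothelial and 5 airway cartilage markers 0 passed (limma; 1 and 0 at an unadjusted p under 0.05). Of 4 platelet markers only Gp9 was tested, and it fell (adjusted p = 0.0482), with Pf4, Gp5 and Gp1bb above the limit on no array. The part of these cell types in the matrix genes' values was not tested.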

How the data were processed

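Values for 9 arrays came as a series table of intensities, deposited by the authors on a linear scale with 1 value per probe set and array. Some values on every array were below 0. Scanner software and summarization: not given in the sources used here. Each array was multiplied by a factor (0.741 to 1.29) to a common 2% trimmed mean. Values below 3.1, the 20th percentile, were raised to it and log2 was taken. Of 12488 probe sets, 66 controls were left out, and 10833 carried 1 gene symbol, 396 several and 1193 none in the array's annotation table. Groups were compared with limma 3.58.1 (R 4.3.3) in 1 fit of 9 arrays (6 residual and 1.69 prior degrees of freedom), two-sided, with Benjamini-Hochberg adjustment over 7920 probe sets at 0.05. The procedure was checked for bias and the share of false calls on simulated data, with independent noise and changes added to the OVA arrays. Its recovery of changes of the size seen here is not reported. Arrays numbered alike did not deviate together, so no pairing was used. Members, lists and tests were chosen with earlier results of these data known. The named genes were all member probe sets and, for each related list and comparison, up to 3 genes with the largest change, passing ones first; of these the text gives those that passed in a comparison, with their values in the others. Alternatives concerned scaling, floor, filter, variance prior, array weights, the arrays fitted, the replicate number as a block, the threshold and each array left out. No set test was run. The number of arrays limits the precision.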

Additional observations from a re-analysis of the deposited data

How the results depend on the processing

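Alternatives left the members at 0 calls in both comparisons with the agonist group. Between OVA and saline 1 member was called with the floor at the 40th percentile (Tnc, adjusted p = 0.0461), with the filter at the 60th (Fn1, 0.0447; the Tnc and Lox probe sets were then not tested) and with an intensity trend and robust prior (Fn1, 0.0416), 2 with array weights (Tnc, 0.0471, and Fn1, 0.0487) and 2 at an adjusted p under 0.1. Left-out arrays gave 0 to 1. Over all settings the adjusted p ran from 0.0416 to 0.179 for Fn1 and from 0.0264 to 0.175 for Tnc.

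Calls over all probe sets between OVA and saline (752) became 1511 at an adjusted p under 0.1, 241 with at least 2-fold, and 80 to 857 with 1 array left out. Between agonist and OVA (218) they became 361 with the higher floor, 445 with the stricter filter, 453 with trend and robust prior, 498 with array weights, 18 with only the 6 arrays compared, 831 at 0.1, 80 with at least 2-fold, and 7 to 526 with 1 array left out. Between agonist and saline (6) they were 3 with the stricter filter and 5 to 16 with 1 array left out. The replicate number as a block gave 50, 14 and 2 calls. Same-numbered arrays deviated together at r of −0.139 to 0.169, so the numbers are no pairing shown by the data. The alternatives for the 10 related genes named, and the fits of the dim Tnc probe set held at the limit, were chosen after seeing the data.

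Small changes turned sign. With array weights Lox 160095_at was 0.059 between OVA and saline and Sparc 0.018 between agonist and OVA, and with quantile normalization Eln 92207_at was −0.0034 between agonist and OVA. With 1 array left out, OVA against saline ran from −0.66 to 0.31 for Lox 160095_at (above 0 without saline replicates 1 or 3 or OVA replicate 2), from −0.028 to 0.32 for Eln 92207_at (below 0 without saline replicate 3) and from −0.014 to 0.12 for Postn (below 0 without OVA replicates 2 or 3). Agonist against OVA ran from −0.13 to 0.17 for Eln 92207_at (below 0 without OVA replicate 1 or agonist replicate 3) and from −0.086 to 0.036 for Sparc (above 0 without OVA replicate 3 or agonist replicates 1 or 3). Agonist against saline ran from −0.027 to 0.24 for Tnc (below 0 without agonist replicate 3), from −0.049 to 0.089 for Bgn 162347_f_at (below 0 without agonist replicate 1) and from −0.0035 to 0.33 for Eln 92207_at (below 0 without saline replicate 3). None of these passed, and the cause was not tested. Signal below the detection limit on some arrays limits Lox 160095_at and the dim Tnc probe set.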
